A study of Rattus norvegicus with 6 samples.

Results

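The respiratory chain and ATP synthase genes were 33 nuclear genes, chosen by symbol, that encode subunits of complexes I to V and cytochrome c. Their expression was followed in lateral ventricle choroid plexus of Sprague-Dawley rats at embryonic day 19 (E19) and postnatal day 2 (P2) and in adult rats, on 6 arrays, 2 for each stage. The RNA on an array came from a pool of several animals, no stage carried a treatment or a genetic change, the methods list adult males, and the adults' age was not given in the sources used here. Values are MAS5 intensities of Affymetrix Rat Genome 230 2.0 arrays, a linear fluorescence scale on which 100 units lay close to the background. A gene was read from a probe set annotated to that gene alone, and from the brightest such probe set where there were several. Of the 33 genes, 31 had such a probe set, among 14217 genes with one in the whole table, and all 31 passed the filter, a stage mean of 100 units or more at any of the 3 stages, as did 10334 genes. Ndufa10 and Cycs were carried only by probe sets shared with related copies and are described apart. Ndufa4 was counted with complex IV, where its protein is now placed. Complex I thus had 13 measured genes, complex II 4, complex III 6, complex IV 4 and complex V 4. The figures label the third group complex III and cytochrome c, although Cycs, the cytochrome c gene, is not in it.

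The respiratory chain sits in the inner mitochondrial membrane. Complex I takes electrons from NADH and complex II, which is also an enzyme of the citric acid cycle, takes them from succinate. Both hand them to ubiquinone, complex III passes them on to cytochrome c, and complex IV delivers them to oxygen. Complexes I, III and IV pump protons as electrons pass, and complex V, the ATP synthase, lets the protons flow back and makes ATP. The choroid plexus epithelium is known for its many mitochondria and for the active ion transport by which it secretes cerebrospinal fluid.

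The arrays had median intensities of 124.5 and 125.1 units at E19, 125.6 and 120.4 units at P2 and 106.1 and 100.1 units in the adult, before any filter. The tissue label was checked against 9 markers of choroid plexus epithelium. Their summed intensity was 74321 to 76056 units at E19, 78767 to 81702 units at P2 and 99562 to 106076 units in the adult, and 8 of the 9, with the exception of the potassium channel Kcnj13, were above 100 units. Of the 8 epithelium markers tested, 4 were called higher and 1 lower in the adult than at E19, against 25.2% and 31.4% of all tested genes. Against P2, 3 were called higher and 0 lower, against 21.8% and 28.8%. With median centring the counts were 5 and 0, and 3 and 0. With quantile normalization they were 3 and 2, and 2 and 1, with a median log2 fold change against P2 of 0.005. Markers of most other cell types were lower in the adult. The 7 endothelium markers summed to 9635 to 10233 units at E19, 8725 to 9131 units at P2 and 1776 to 1800 units in the adult, where Pecam1 and Flt1 lay under 100 units. The 6 fibroblast markers summed to 19014 to 19229 units at E19, 19626 to 22627 units at P2 and 7025 to 7586 units in the adult. In each adult comparison 5 of them were called lower and 1 higher. The 7 cell cycle genes summed to 6112 to 6760 units at E19, 5591 to 6273 units at P2 and 914 to 953 units in the adult. Summed mural, macrophage and erythroid markers were also lower in both adult pools than in any earlier pool, although 2 of the 7 macrophage markers were called lower against E19, with a median log2 fold change of -0.01. The 4 neuron markers summed to 208 to 270 units at E19, 430 to 483 units at P2 and 326 to 389 units in the adult, and 3 oligodendrocyte markers, under 100 units each in the earlier pools, summed to 802 to 2258 units in the adult. In bulk tissue, fewer cells of a type and less RNA per cell cannot be told apart, and the part of these shifts in the results below was not tested.

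The 3 members with the largest increases of adult over E19 among those with a RefSeq promoter entry were Sdha, Ndufs1 and Ndufv2, and the 2 with log2 fold changes closest to 0 were Ndufa4 and Uqcrh. Their promoters, 250 bases before to 50 bases after the annotated start, are shown so that the genes with the largest increases can be set beside those closest to 0. Ndufb8, the only member with a negative value, is not among them. They are RefSeq sequences of build GRCr8, on the strand of the gene, at chr1:30764303-30764602 (+) for Sdha, chr9:72073556-72073855 (-) for Ndufs1, chr9:113157471-113157770 (-) for Ndufv2, chr4:40975510-40975809 (-) for Ndufa4 and chr5:134790833-134791132 (-) for Uqcrh. Capitals mark matches, on either strand, to the letters searched for NRF1 (GCGCA, any base, then GCGC), GABP (CCGGAAG), ERR (AAGGTCA) and YY1 (AAGATGGC), which are factors known to act on nuclear genes of mitochondrial proteins.
Sdha promoter: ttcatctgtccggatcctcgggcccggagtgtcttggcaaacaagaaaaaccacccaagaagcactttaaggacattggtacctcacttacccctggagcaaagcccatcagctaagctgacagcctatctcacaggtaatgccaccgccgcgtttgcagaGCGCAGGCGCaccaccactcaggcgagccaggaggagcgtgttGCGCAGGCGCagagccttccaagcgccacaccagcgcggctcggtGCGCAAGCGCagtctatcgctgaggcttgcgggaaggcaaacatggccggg
Ndufs1 promoter: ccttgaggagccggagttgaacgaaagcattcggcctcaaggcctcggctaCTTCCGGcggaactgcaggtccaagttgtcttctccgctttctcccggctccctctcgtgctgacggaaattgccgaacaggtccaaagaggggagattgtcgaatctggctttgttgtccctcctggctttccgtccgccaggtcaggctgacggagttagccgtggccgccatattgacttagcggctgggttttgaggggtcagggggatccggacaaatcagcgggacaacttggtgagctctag
Ndufv2 promoter: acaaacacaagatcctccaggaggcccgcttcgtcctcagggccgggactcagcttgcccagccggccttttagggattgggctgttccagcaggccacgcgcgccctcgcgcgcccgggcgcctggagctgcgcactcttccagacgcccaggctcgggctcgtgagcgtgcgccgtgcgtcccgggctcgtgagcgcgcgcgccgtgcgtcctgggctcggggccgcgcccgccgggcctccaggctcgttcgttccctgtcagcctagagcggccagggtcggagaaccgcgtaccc
Ndufa4 promoter: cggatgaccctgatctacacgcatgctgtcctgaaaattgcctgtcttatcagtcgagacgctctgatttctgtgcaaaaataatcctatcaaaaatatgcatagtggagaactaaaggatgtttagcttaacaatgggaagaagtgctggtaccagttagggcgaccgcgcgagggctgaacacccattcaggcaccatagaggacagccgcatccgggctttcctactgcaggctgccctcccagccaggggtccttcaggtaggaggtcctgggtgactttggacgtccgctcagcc
Uqcrh promoter: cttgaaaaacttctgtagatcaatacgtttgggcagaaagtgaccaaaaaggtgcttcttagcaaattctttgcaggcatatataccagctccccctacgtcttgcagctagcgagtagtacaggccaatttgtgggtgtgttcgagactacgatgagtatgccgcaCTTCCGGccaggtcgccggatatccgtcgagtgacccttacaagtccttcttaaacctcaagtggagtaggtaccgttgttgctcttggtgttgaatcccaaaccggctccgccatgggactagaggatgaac
The Sdha promoter held the NRF1 letters at 3 places, and those of Ndufs1 and Uqcrh held the GABP letters at 1 place each. Those of Ndufv2 and Ndufa4 held none of the 4. A match describes letters in this window and is not a binding site.

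The members were bright. Intensities of 30 of the 31 averaged at least 2000 units, the median member lay at the 96.9th percentile of the tested genes, and 7 members exceeded 10000 units at all stages. Pools of a stage differed by a median of 1.05-fold at E19, 1.04-fold at P2 and 1.05-fold in the adult. The pools lay within 1.2-fold of each other for 30 members at E19, for 29 at P2 and for 29 in the adult. The exceptions were Ndufs4 at E19, Ndufb8 and Ndufs4 at P2, and Ndufb8 and Uqcrc2 in the adult.

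In the adult, 17 of the 31 members were higher than at E19 and 0 were lower, by limma over all tested probe sets at an adjusted p under 0.05. This is 54.8% of the members, where 25.2% of all tested genes were higher and 31.4% lower, and where 30.2% of the 2041 genes of at least 2000 units were higher and 26.0% lower. At an unadjusted p under 0.05, 18 members were higher and 0 lower. The median log2 fold change of the members was 0.33, against -0.04 over all tested genes, and 30 of the 31 values were positive. The changes were small, with 4 of the called genes at or above 1.5-fold and Sdha alone above 2-fold. Both adult pools lay above both E19 pools for 28 members, below them for 1 (Ndufb8), and overlapped them for 2 (Ndufs4 and Uqcrc2). Over all tested genes, 38.6% lay above and 44.3% below in this way.

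Against P2, 11 members were higher in the adult and 0 were lower, which is 35.5% of the members, where 21.8% of all tested genes were higher and 28.8% lower. At an unadjusted p under 0.05 the counts were 18 and 0. Among genes of at least 2000 units, 27.3% were higher and 23.3% lower. The median log2 fold change was 0.25, against -0.05 over all tested genes. Both adult pools lay above both P2 pools for 29 members, below them for Ndufb8, and overlapped them for Sdhd, where 36.1% of all tested genes lay above and 43.1% below. The 2 adult comparisons share the adult pools and are therefore not independent of each other.

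Between P2 and E19, 0 of the 31 members were called by limma in either direction, where 3.61% of all tested genes were higher and 2.56% lower, and 3.58% and 1.27% of those of at least 2000 units. At an unadjusted p under 0.05, 3 members were higher at P2 and 0 lower. With a spread estimate that follows intensity, the same fit called these genes higher, namely Cyc1, Sdha and Ndufs3. The median log2 fold change was 0.02, against 0.01 over all tested genes, and values ran from -0.21 for Uqcrq to 0.27 for Cyc1. P2 pools lay above both E19 pools for 11 members, below them for 6 and overlapped them for 14, where 33.1% of all tested genes lay above and 29.9% below.

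**Figure D1:**
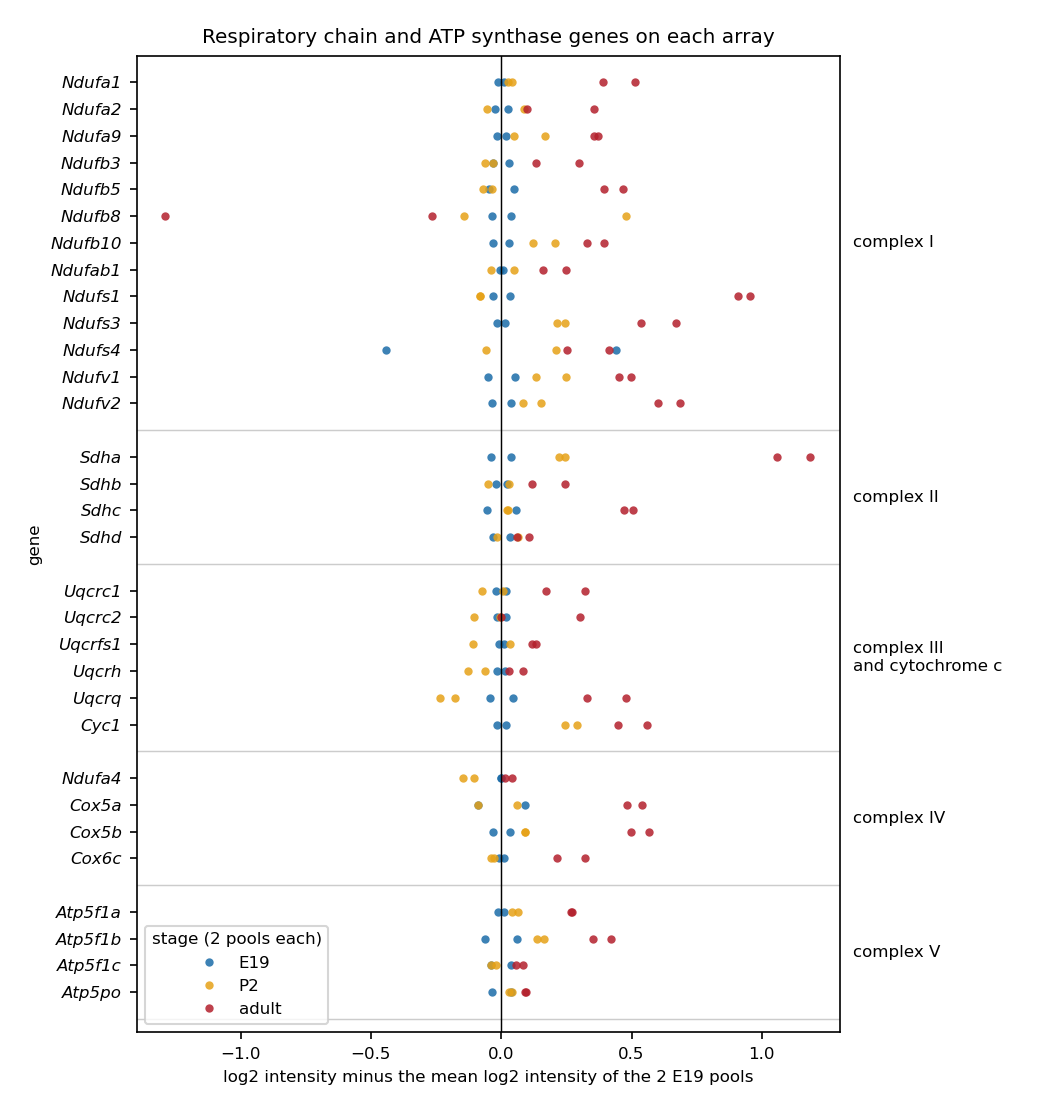
Log2 intensity of each of the 31 members on each array, minus the mean log2 intensity of the 2 E19 pools of that gene, with genes grouped by complex. Each point is a pool, coloured by stage. P2 points lie around the E19 points, with a median over the members of -0.04 and 0.04 on the 2 arrays, and adult points lie to the right, at 0.36 and 0.33, with Sdha and Ndufs1 farthest and Ndufb8 to the left.

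The number of higher genes was sensitive to the number of arrays, the scaling, the filter and the spread estimate. Without E19 pool 1, without E19 pool 2 and without adult pool 1, 9, 8 and 10 members were higher in the adult than at E19, and without P2 pool 1 and without adult pool 1, 7 and 7 were higher than at P2. Centring each array on its median moved the median of all genes to 0.07 in both adult comparisons, and the share of called genes that were higher moved to 53.7%, against 44.6% as deposited, for E19 and to 54.6%, against 43.1%, for P2. The members' medians were then 0.44 and 0.37, and 21 and 23 members were higher than at E19 and P2. Of all tested genes, 30.8% and 28.5% were then higher. With quantile normalization the medians were 0.23 and 0.14, against 0.02 and 0.005 over all genes, and 14 and 8 members were higher. Over all tested genes 28.1% and 24.2% were higher in that setting, so that 8 of 31 against P2 lay near the background. Against P2, 4 members were higher without a filter, and 24 were higher and 1 lower with the spread estimate that follows intensity. For these 2 settings and the fits that left out an array, the share of all tested genes is not given here. Those counts therefore cannot be set against a background.

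In complex I, 8 of 13 members (61.5%) were higher in the adult than at E19 and 5 (38.5%) were higher than at P2. The shares of all tested genes were 25.2% and 21.8%. Median log2 fold changes were 0.36 and 0.26. The calls of Ndufa1 and Ndufs3 against P2 were lost with quantile normalization (adjusted p = 0.062 and 0.0619, limma). The genes of the arm that receives electrons from NADH included the largest increases. Ndufs1 encodes its large iron-sulfur subunit, and its intensity was 3329 and 3488 units at E19, 3219 and 3218 units at P2 and 6599 and 6403 units in the adult. The adult pools stood clear of both earlier stages, which lay together. Adult expression was 1.91-fold that at E19 (log2 0.93, SE 0.082, adjusted p = 0.000777 by limma) and 2.02-fold that at P2 (adjusted p = 0.000811).

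Ndufv2, a further iron-sulfur subunit of that arm, measured 4921 and 4682 units at E19, 5336 and 5085 units at P2 and 7274 and 7713 units in the adult. The adult value was 1.56-fold that at E19 (adjusted p = 0.00312, limma) and 1.44-fold that at P2 (adjusted p = 0.00707). Ndufv1, the flavin-bearing subunit that binds NADH, measured 2623 and 2815 units at E19, 2984 and 3224 units at P2 and 3718 and 3840 units in the adult. The 3 stages of Ndufv1 did not overlap, with P2 between the others, and the log2 fold change was 0.48 against E19 (adjusted p = 0.00967, limma) and 0.29 against P2, which did not pass (adjusted p = 0.0519). Ndufs3, a core subunit near the site where ubiquinone is reduced, had the same order, with 4085 and 4169 units at E19, 4893 and 4783 units at P2 and 6566 and 5988 units in the adult. Its log2 fold change was 0.60 against E19 (adjusted p = 0.00399, limma) and 0.37 against P2 (adjusted p = 0.0212), the last being called in only 1 of the 6 fits that left out an array. P2 exceeded E19 by 0.23 on the log2 scale, which did not pass (adjusted p = 0.176).

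The accessory subunits of complex I that were called had log2 fold changes of 0.36 to 0.45 against E19. Ndufa1, a small subunit of the membrane arm, measured 12888 and 13092 units at E19, 13209 and 13376 units at P2 and 18550 and 17030 units in the adult. Ndufb5, also of the membrane arm, measured 9458 and 10099 units at E19, 9312 and 9529 units at P2 and 13502 and 12851 units in the adult. For both genes the earlier stages lay together and the adult pools above them, with log2 fold changes against E19 of 0.45 for Ndufa1 (adjusted p = 0.00956, limma) and 0.43 for Ndufb5 (adjusted p = 0.011), and both were also higher than at P2. Ndufb10 and Ndufa9 rose by 0.36 each against E19 (adjusted p = 0.0196 and 0.0188), whereas their differences from P2, 0.20 and 0.26, did not pass. Another, dim probe set of Ndufa9 was under 100 units in both pools of the earlier stages and at 165 units in both adult pools, so that the adult was at least 1.65-fold higher there. Ndufa2, Ndufb3 and Ndufab1, the mitochondrial acyl carrier protein, had log2 fold changes of 0.20 to 0.23 against E19 and 0.20 to 0.26 against P2, and none of these passed.

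Ndufb8 and Ndufs4 stood apart through the spread of their pools. Ndufb8, a membrane arm subunit, measured 2537 and 2665 units at E19, 2357 and 3625 units at P2 and 2164 and 1062 units in the adult. Both adult pools were below all earlier pools but differed 2.04-fold from each other. The log2 fold change was -0.78 against E19 (SE 0.383, adjusted p = 0.141, limma) and -0.95 against P2 (adjusted p = 0.0941), and Ndufb8 was called lower only without adult pool 1, at -1.29 and -1.46 (adjusted p = 0.0237 and 0.02), or with the spread estimate that follows intensity (adjusted p = 0.048 and 0.0239). Ndufs4, an accessory subunit needed for a stable complex, measured 2586 and 1402 units at E19, 1827 and 2200 units at P2 and 2266 and 2535 units in the adult. The E19 pools bracketed the other 4. Its log2 fold change against E19 was 0.33 (adjusted p = 0.392), and it was -0.11 without E19 pool 2 and 0.77 without E19 pool 1, where it was called (adjusted p = 0.0342).

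In complex II, 2 of 4 members were higher in the adult in each comparison, with median log2 fold changes of 0.33 and 0.33. Sdha encodes the flavoprotein that oxidises succinate and showed the largest change against E19 of any member. Its intensity was 2610 and 2751 units at E19, 3175 and 3127 units at P2 and 5577 and 6086 units in the adult. The stages did not overlap, with P2 close to E19 and the adult pools far above. Adult expression was 2.17-fold that at E19 (log2 1.12, SE 0.09, adjusted p = 0.000625, limma) and 1.85-fold that at P2 (adjusted p = 0.00158), while P2 exceeded E19 by 0.23 on the log2 scale (adjusted p = 0.176).

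The other subunits of complex II had smaller log2 fold changes than Sdha. Sdhc, a membrane anchor, measured 7932 and 7336 units at E19, 7746 and 7761 units at P2 and 10818 and 10568 units in the adult, a 1.40-fold increase over E19 (adjusted p = 0.00716, limma) and 1.38-fold over P2 (adjusted p = 0.0098). Sdhb, the iron-sulfur subunit, measured 4557 and 4432 units at E19, 4342 and 4591 units at P2 and 5324 and 4874 units in the adult. Sdhd, the further anchor, measured 8508 and 8123 units at E19, 8226 and 8700 units at P2 and 8951 and 8665 units in the adult. Adult pools of Sdhb lay above the rest by a small margin and those of Sdhd overlapped P2, and neither gene was called, with log2 fold changes against E19 of 0.18 and 0.08. Another probe set of Sdhd gave -0.02 against E19 and -0.17 against P2. The 4 subunits occur in equal numbers in the complex, and the ratios of their transcripts in the adult over E19 ran from 1.06 to 2.17.

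In complex III, 2 of 6 members (33.3%) were higher in the adult than at E19 and 1 (16.7%) than at P2, near the 25.2% and 21.8% of all tested genes, with median log2 fold changes of 0.20 and 0.22. Cyc1 encodes cytochrome c1, which hands electrons to cytochrome c. It measured 5386 and 5263 units at E19, 6307 and 6509 units at P2 and 7839 and 7258 units in the adult. The 3 stages were separate, and P2 lay about midway. The adult was 1.42-fold higher than E19 (adjusted p = 0.00667, limma), while the steps of adult over P2 (log2 0.24, adjusted p = 0.0744) and P2 over E19 (log2 0.27, adjusted p = 0.128) did not pass singly. Uqcrq, a small subunit, had its lowest values at P2, with 8948 and 8407 units at E19, 7359 and 7668 units at P2 and 12094 and 10882 units in the adult. It was 1.53-fold higher in the adult than at P2 (adjusted p = 0.00599, limma) and 1.32-fold higher than at E19 (adjusted p = 0.0194), and the lower level at P2 did not pass against E19 (log2 -0.21, adjusted p = 0.237).

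The remaining subunits of complex III were not called. Uqcrh, the hinge protein, measured 12350 and 12089 units at E19, 11709 and 11181 units at P2 and 12477 and 12962 units in the adult, with a log2 fold change of 0.06 against E19 (SE 0.083, adjusted p = 0.585, limma). Uqcrfs1, the Rieske iron-sulfur protein, had 0.13 against E19 and 0.17 against P2. The core proteins Uqcrc1 and Uqcrc2 had 0.25 and 0.15 against E19, and the pools of Uqcrc2 overlapped, with 8629 and 6984 units in the adult and 7078 and 6906 units at E19. Without adult pool 1 the value of Uqcrc2 was -0.002, and another probe set of Uqcrc2 gave 0.44 against E19 and -0.305 against P2, neither called.

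Cytochrome c, the soluble carrier between complexes III and IV, was measured by 2 probe sets that Cycs shares with copies named Cycsl1 and Cycs-ps9. The brighter one read 7801 and 7778 units at E19, 8038 and 8035 units at P2 and 11478 and 11882 units in the adult, with a log2 fold change of 0.58 against E19 (adjusted p = 0.00305, limma) and 0.54 against P2 (adjusted p = 0.00474). The other gave 0.65 and 0.51 (adjusted p = 0.00499 and 0.0128). On both, the adult pools lay above all earlier pools. The probe set that Ndufa10, a complex I subunit, shares with Ndufa10l1 read 1697 and 1609 units at E19, 1757 and 1673 units at P2 and 2568 and 2515 units in the adult, with a log2 fold change of 0.62 against E19 (adjusted p = 0.00311) and 0.57 against P2 (adjusted p = 0.00497). Which copy gave the signal cannot be read from these probe sets.

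In complex IV, 3 of 4 members (75.0%) were higher in the adult in each comparison, against 25.2% and 21.8% of all tested genes. Median log2 fold changes were 0.39 and 0.37. Cox5b, a nuclear subunit of cytochrome c oxidase, measured 7853 and 8224 units at E19, 8564 and 8568 units at P2 and 11920 and 11341 units in the adult. The adult pools were above all others, by 1.45-fold over E19 (adjusted p = 0.00485, limma) and 1.36-fold over P2 (adjusted p = 0.0105). Cox6c measured 13702 and 13526 units at E19, 13232 and 13354 units at P2 and 17024 and 15808 units in the adult. Its log2 fold changes of 0.27 and 0.30 passed (adjusted p = 0.0446 and 0.0343) but did so in 0 of the 6 fits that left out an array.

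Cox5a was the dimmest member on the probe set it has alone, with 251 and 221 units at E19, 221 and 246 units at P2 and 342 and 329 units in the adult (log2 0.51 against E19, adjusted p = 0.0132, limma). A probe set that Cox5a shares with LOC100361008 was much brighter, at 6533 and 6656 units at E19, 7038 and 7193 units at P2 and 8780 and 8660 units in the adult (log2 0.40 against E19, adjusted p = 0.0101). Both gave the adult as the highest stage. Ndufa4 measured 12978 and 12991 units at E19, 12072 and 11736 units at P2 and 13344 and 13118 units in the adult. Its log2 fold change of 0.03 against E19 (SE 0.079, adjusted p = 0.788) was the smallest of all members, and its P2 pools lay below the other 4 without passing (log2 -0.13 for P2 versus E19, adjusted p = 0.358).

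In complex V, 2 of 4 members were higher in the adult than at E19 and 0 than at P2, where 2 had an unadjusted p under 0.05, with median log2 fold changes of 0.18 and 0.16. Atp5f1b encodes the catalytic beta subunit, and measured 11414 and 12430 units at E19, 13361 and 13082 units at P2 and 15944 and 15203 units in the adult. Its log2 fold change was 0.39 against E19 (adjusted p = 0.0174, limma) and 0.24 against P2 (adjusted p = 0.0806). Atp5f1a, the alpha subunit, measured 7844 and 7978 units at E19, 8261 and 8130 units at P2 and 9511 and 9541 units in the adult. The 3 stages were separate for both genes, with P2 nearer to E19. The log2 fold change of Atp5f1a against E19 was 0.27 (adjusted p = 0.0356, limma), a call kept in 0 of the 6 fits that left out an array. Atp5f1c, the gamma subunit of the rotating stalk, and Atp5po, the subunit that joins the head to the outer stalk, had 0.07 and 0.09 against E19 and 0.10 and 0.06 against P2, and neither was called.

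Relative to the E19 mean, the median member of complex I stood at 0.39 and 0.39 on the 2 adult arrays, that of complex II at 0.37 and 0.29, that of complex III at 0.31 and 0.15, that of complex IV at 0.43 and 0.35 and that of complex V at 0.18 and 0.18. Complex IV lay above II and II above III on both arrays, whereas I and IV, and III and V, changed places between the 2 adult pools. With 4 to 13 genes a complex, no test was made between complexes. On the P2 arrays the same medians ran from -0.09 to 0.09. The order also moved with the processing, since complex V had 0.145 and complex III 0.107 against E19 with quantile normalization.

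The other nuclear subunits of complexes I, III, IV and V on the array, 43 tested genes, held 20 higher (46.5%) and 3 lower genes in the adult than at E19, with a median log2 fold change of 0.24, and 13 higher (30.2%) and 3 lower genes than at P2, with a median of 0.24. Over all tested genes, 25.2% and 21.8% were higher. With median centring the counts were 27 and 2 against E19, and 31 and 1 against P2. Of all tested genes, 30.8% and 28.5% were higher in that setting. With quantile normalization the counts were 15 and 4, and 10 and 4, where 28.1% and 24.2% of all tested genes were higher. The count against P2 then did not exceed the background. The 21 further subunits of complex I had a median of 0.32 against E19 with 12 higher and 0 lower (13 and 0 at an unadjusted p under 0.05), led by Ndufv3 at 0.78, Ndufs8 at 0.68 and Ndufa3 at 0.58. The 11 further subunits of complex V had a median of 0.20, with 4 higher and 1 lower, which was the ATPase inhibitory factor Atp5if1 at -0.43 (adjusted p = 0.012, limma). With quantile normalization 1 was higher and 1 lower, and with median centring 6 and 1. Of the 2 further subunits of complex III, Uqcr11 was lower at -0.28 (adjusted p = 0.0384) and Uqcr10 had 0.13, and the call of Uqcr11 was lost with median centring (adjusted p = 0.143).

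The 9 further tested subunits of complex IV had a median log2 fold change of 0.26 against E19, with 4 higher (44.4%) and 1 lower. Against P2 the median was 0.24, with 2 higher (22.2%) and 1 lower. Over all tested genes, 25.2% and 21.8% were higher, so that the share against P2 lay near the background. With median centring 7 were higher and 1 lower in each comparison. With quantile normalization the counts were 4 and 1, and 3 and 1. Far larger changes were found in 2 isoform subunits among them. Cox8b, the isoform known from heart and skeletal muscle, was under 100 units in all earlier pools and at 3416 and 3580 units in the adult, at least 35.0-fold higher, taken against 100 units (adjusted p = 0.000612 against E19 and 0.000927 against P2, limma). Cox6b2, the isoform known from testis, measured 5511 and 5233 units at E19, 3580 and 3221 units at P2 and 773 and 873 units in the adult, with a log2 fold change of -2.71 against E19 (adjusted p = 0.000113). The mitochondrially encoded COX1 and COX2 were among the brightest probe sets, at 16912 to 20386 units over the 6 arrays, where the highest value of an array was 19120 to 24990 units. Saturation at such levels, which can compress a difference, was not tested. They had log2 fold changes of 0.05 and 0.005 against E19. In all 3 comparisons 0 of the 2 passed, also at an unadjusted p under 0.05. With median centring COX1 passed against P2 (log2 0.31, adjusted p = 0.0314), and with quantile normalization both values against E19 turned negative (-0.06 and -0.09).

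**Figure D2:**
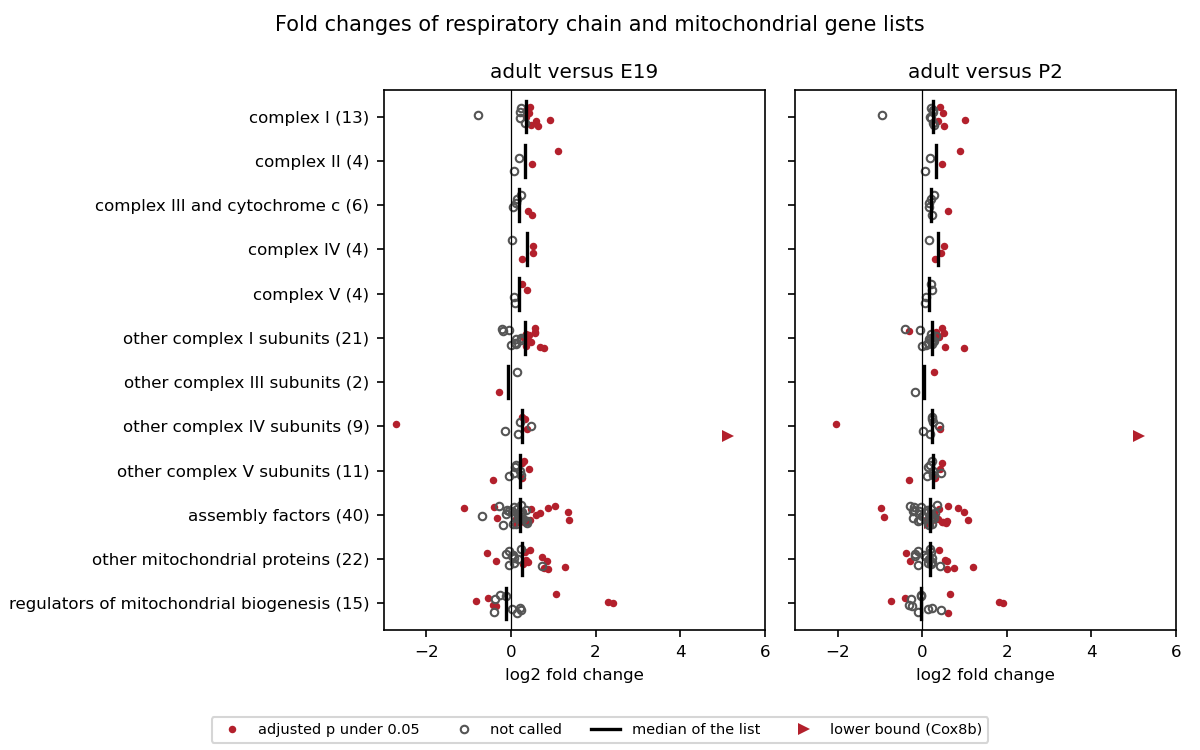
Log2 fold change of each tested nuclear gene of complexes I to V and the related lists, for adult versus E19 (left) and P2 (right). The mitochondrially encoded COX1 and COX2 are not shown. Filled points passed at an adjusted p under 0.05, open points did not, black bars are list medians, and the triangle is the lower bound for Cox8b. Medians of the 5 member groups lie between 0.16 and 0.39, and Ndufb8 is the only member left of 0.

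Proteins that assemble the complexes were followed through 40 tested genes, of which 11 (27.5%) were higher and 3 lower in the adult than at E19, with a median log2 fold change of 0.22. The share higher was close to the 25.2% of all tested genes. With median centring the counts were 19 and 1, where 30.8% of all tested genes were higher and 26.5% lower. With quantile normalization they were 11 and 3, where 28.1% were higher and 28.6% lower. The largest increases were those of Cox17, a copper chaperone for complex IV, at 1.36, of Sdhaf3, an assembly factor of complex II, at 1.34, and of Ndufaf4, an assembly factor of complex I, at 1.05. Their adjusted p values by limma were 0.000656, 0.000659 and 0.00285. Cox17 measured 1334 and 1412 units at E19, 1515 and 1796 units at P2 and 3509 and 3540 units in the adult. Nubpl, which is needed to insert iron-sulfur clusters into complex I, went the other way at -1.11 (adjusted p = 0.00343), with 1224 and 1634 units at E19, 1258 and 1321 units at P2 and 628 and 680 units in the adult.

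Of 22 tested genes for other mitochondrial proteins, 10 (45.5%) were higher and 2 lower in the adult than at E19, against 25.2% and 31.4% of all tested genes, with a median log2 fold change of 0.26. Mfn1, which fuses outer membranes, had 1.28, Dnm1l, which divides mitochondria, had 0.87, and Immt, a component of the crista junction, had 0.84, all called. The lower genes were Tomm20, an import receptor of the outer membrane, at -0.57 (adjusted p = 0.00868, limma), and Phb2, a prohibitin of the inner membrane, at -0.35 (adjusted p = 0.0173, and 0.0534 with median centring). Citrate synthase, Cs, had 0.25 (adjusted p = 0.0503). Compared with P2, 6 of the 22 (27.3%) were higher and 2 lower, nearer to the 21.8% of all tested genes, with a median of 0.19. With median centring 11 were higher in each adult comparison, where 30.8% and 28.5% of all tested genes were. With quantile normalization 8 were higher than at E19 and 6 than at P2, where 28.1% and 24.2% of all tested genes were.

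Among 15 regulators of mitochondrial biogenesis, 3 were higher and 4 lower in the adult than at E19, against 25.2% and 31.4% of all tested genes, so that the list as a whole did not exceed the background. Ppargc1a encodes the coactivator PGC-1alpha, which works with the nuclear receptors ERRalpha and ERRgamma, the products of Esrra and Esrrg. Ppargc1a measured 403 and 402 units at E19, 562 and 506 units at P2 and 886 and 807 units in the adult (log2 1.07 against E19, adjusted p = 0.000957, limma). Esrra measured 283 and 291 units at E19, 381 and 415 units at P2 and 1303 and 1517 units in the adult. Esrrg measured 718 and 836 units at E19, 1150 and 1039 units at P2 and 4096 and 4158 units in the adult. For all 3 genes the stages did not overlap on these probe sets, and adult levels were the highest, 4.90-fold those at E19 for Esrra (adjusted p = 0.000173) and 5.33-fold for Esrrg (adjusted p = 0.000155). Against P2 the log2 fold changes were 0.67, 1.82 and 1.92, and all passed under each scaling. Other probe sets of Ppargc1a gave 0.70 and 1.05 against E19, and another of Esrrg gave 2.23, all called. Between P2 and E19, the first, dim probe set of Ppargc1a overlapped (log2 -0.23). The second was called higher at P2 (log2 0.62, adjusted p = 0.0401, limma), as was that of Esrrg (log2 0.48, adjusted p = 0.0397).

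Against E19, the other regulators were lower in the adult or did not pass. Gabpb1, a subunit of the factor GABP, measured 628 and 595 units at E19, 571 and 586 units at P2 and 352 and 339 units in the adult (log2 -0.82 against E19, adjusted p = 0.00125, limma). Nrf1, which encodes the nuclear respiratory factor, measured 251 and 286 units at E19, 228 and 259 units at P2 and 173 and 192 units in the adult (log2 -0.55, adjusted p = 0.0149). Tfam, which packages and transcribes mitochondrial DNA, measured 1865 and 1736 units at E19, 1638 and 1721 units at P2 and 1396 and 1431 units in the adult (log2 -0.35, adjusted p = 0.0224). The adult pools of these 3 genes were below all earlier pools. Yy1 had -0.42 (adjusted p = 0.0212). The calls of Yy1 and Tfam against E19 were lost with median centring (adjusted p = 0.0568 and 0.0723) and that of Nrf1 with quantile normalization (adjusted p = 0.074), with the sign kept. Twnk, the mitochondrial DNA helicase, was higher in the adult than at P2 (log2 0.61, adjusted p = 0.00474) and lower at P2 than at E19 (log2 -0.47, adjusted p = 0.0476), the last a call lost in all 6 fits that left out an array (adjusted p = 0.066 to 0.22) and without a filter (0.197). Another probe set of Twnk gave log2 0.36 for adult versus P2 and -0.27 for P2 versus E19, neither called. The other 7 regulators, Ppargc1b, Pprc1, Gabpa, Tfb1m, Tfb2m, Polrmt and Polg, had values of -0.41 to 0.25 against E19 and did not pass. Gabpa lay close to the threshold (log2 -0.37, adjusted p = 0.0511, limma). It was called lower with quantile normalization (adjusted p = 0.0313) but not with median centring (adjusted p = 0.123).

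**Figure D3:**
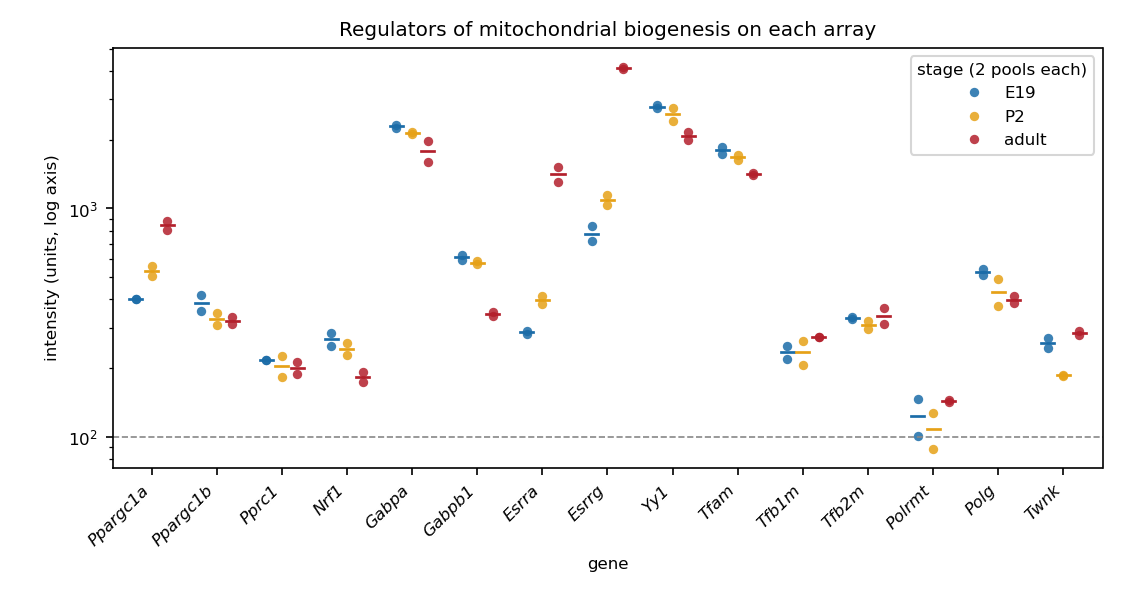
Intensity of the 15 regulators of mitochondrial biogenesis on each array, on a log axis, with a short line at the mean of each stage's 2 pools and a dashed line at 100 units. Esrra and Esrrg are 4.90-fold and 5.33-fold higher in the adult than at E19, and Gabpb1, Nrf1, Yy1 and Tfam are lower in the adult.

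The letters searched in the promoters were counted over the 31 members with a RefSeq entry and over 18999 promoters of protein-coding genes of the same length. The NRF1 letters were in 4 member promoters (12.9%, against 6.08% of all), those of Sdha, Uqcrc1, Atp5f1c and Atp5po. The GABP letters were in 10 (32.3%, against 11.2%), the ERR letters in 3 (9.68%, against 3.71%), which were Atp5f1a, Sdhd and Uqcrq, and the YY1 letters in 7 (22.6%, against 3.92%). Among the members with an entry, 15 were higher in the adult than at E19 and 14 were tested but not called. The GABP letters were in 5 of the 15 and 5 of the 14, the NRF1 letters in 1 and 3, the ERR letters in 2 and 1, and the YY1 letters in 2 and 5. These counts are a description of the listed windows.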

How the data were processed

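The authors hybridised amplified RNA of each pool to an Affymetrix Rat Genome 230 2.0 array and deposited MAS5 signal intensity per probe set, computed with Affymetrix Expression Console according to the submitters' processing notes (versions not given in the sources used here) and scaled per array. The deposited intensities are linear, with no detection calls. The table held 31099 probe sets, of which 57 controls were left out, and 0 columns belonged to no sample. Of 21268 annotated probe sets, 20832 named a single gene and 436 several, with symbols updated through the RefSeq gene table of GRCr8 (68 gene numbers found no match).

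A probe set was tested if its stage mean reached 100 units at any stage, which 17808 did. Their log2 intensities on all 6 arrays entered a single limma fit (version 3.58.1, R 4.3.3) with a mean for each stage, 3 residual and 2.147 prior degrees of freedom. Benjamini-Hochberg adjustment ran over the tested probe sets of each comparison. Calls needed an adjusted p under 0.05. The p values measure the spread between 2 pools a stage, which limits the precision. Log2 fold changes are later over earlier stage. Where a stage was under 100 units in both pools, a fold is given as a bound against 100 units. The procedure was tested on simulated data.

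The members and lists were chosen with earlier results of these data known. All members could be named, with the regulators, the 3 largest and 3 smallest changes of each other list against E19 and defining markers. Cs and, among lists, the genes named beyond these were chosen after their values were seen. Alternatives changed the filter, scaling, low values, arrays fitted, spread estimate, pool block, probe sets and threshold, and left out each array. In those fits the stage with a lone array was assumed to have the spread of the other stages. The authors' other assays were not analysed here.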

Additional observations from a re-analysis of the deposited data

How the results depend on the processing

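Without a filter, 7 members were higher in the adult than at E19 and 4 than at P2, and at an adjusted p under 0.01 the counts were 9 and 6. Median centring gave 23 higher genes against P2, where 28.5% of all tested genes were higher. The spread estimate that follows intensity called 25 against P2, of which 24 were higher, and 3 between P2 and E19. For that estimate, the missing filter and the stricter threshold, the share of all tested genes is not given here. With median centring the median log2 fold changes against E19 were 0.44 for the members and 0.47, 0.44, 0.31, 0.50 and 0.29 for complexes I to V, and against P2 they were 0.37, and 0.38, 0.44, 0.34, 0.49 and 0.28. With quantile normalization they were 0.23, and 0.30, 0.24, 0.11, 0.34 and 0.145 against E19, 0.14, and 0.22, 0.24, 0.11, 0.25 and 0.049 against P2, and 0.015 for complex IV and 0.092 for complex V between P2 and E19. With the mean of all probe sets of a gene, complexes I and III had 0.43 and 0.27 against E19. Causes of these shifts were not tested. A stricter threshold on the same fit cannot raise a count.

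Single genes that changed sign were called neither as reported nor in the setting that turned them. Against P2, Sdhd had -0.043 and Atp5po -0.014 with quantile normalization, and Sdhd -0.054 and Uqcrc2 -0.05 with the mean of probe sets. Against E19, Ndufs4 had -0.11 without E19 pool 2 (0.77 without E19 pool 1) and Uqcrc2 -0.002 without adult pool 1.

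Leaving out each array in turn gave 8 to 15 called members against E19 (8 to 15 higher) and 7 to 10 against P2 (7 to 10 higher). Medians against E19 ran from 0.29 to 0.37 for complex II, 0.15 to 0.31 for complex III and 0.34 to 0.43 for complex IV. Against P2 they ran from 0.23 to 0.34 for complex I, 0.29 to 0.37 for complex II, 0.18 to 0.32 for complex III and 0.33 to 0.42 for complex IV. Between P2 and E19 they ran from -0.039 to 0.13 for complex I, -0.019 to 0.069 for complex II and -0.075 to 0.017 for complex IV. All 6 fits called 6 of the 17 genes against E19 (Ndufs1, Ndufs3, Ndufv2, Sdha, Cyc1 and Cox5b) and 7 of the 11 against P2 (Ndufb5, Ndufs1, Ndufv2, Sdha, Sdhc, Uqcrq and Cox5b).

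Pools of the same number shared only that number, with correlations of their deviations of -0.06 to 0.007. With the replicate block, 15 members were higher against E19 and 10 against P2, since Cox6c (adjusted p = 0.0783 and 0.0639) and, against E19, Atp5f1a (adjusted p = 0.071) were no longer called. The share of all tested genes called with that block is not given here, so that these counts cannot be set against a background. With 2 pools a stage, changes of the size seen in most members lie near the limit of what these arrays can call.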
